A study of Mus musculus with 16 samples.

Results

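The diet by fasting interaction was described in mouse liver: for each gene, the log2 change on fasting in mice on a high-fat diet (HFD) minus the log2 change on fasting in mice on a control diet (CD). All 16 of the 16 libraries entered this difference of differences, 4 in each of 4 groups, and no measured value was used to choose them. Of 15075 genes tested with edgeR's quasi-likelihood test, 390 (2.59%) had an interaction at a Benjamini-Hochberg adjusted p under 0.05. In 185 genes (1.23%) the interaction was positive, that is, the fasting change was higher in HFD than in CD, and in 205 genes (1.36%) it was negative. These 390 are called interaction genes here. At an unadjusted p under 0.05 there were 3045 genes (20.2%). Every adjusted p below comes from edgeR, and levels are CPM, counts per 1e+06 counts of a library after TMM (trimmed mean of M-values) scaling, which reduces differences in library size and composition.

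RNA-seq measured polyadenylated RNA in whole livers of male C57BL6/J mice, a strain that the labels write as C56B6/J, with 1 library per mouse. The study asked how the liver transcriptome responds to feeding and fasting in lean mice and in mice with diet-induced obesity. The groups were CD fed (control diet for 16 weeks, fed ad libitum), CD fast (control diet for 16 weeks, then a 16 h fast), HFD fed (a diet with 60% of its calories from fat for 16 weeks, fed ad libitum) and HFD fast (the same high-fat diet for 16 weeks, then a 16 h fast). No group carried an engineered allele or received a drug. The labels name no cage, litter or batch. Had any of these followed the groups, it could not be told apart from diet or fasting. The p-values measure the spread between these mice. In bulk liver, fewer cells of a type and less RNA per cell cannot be told apart.

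After a meal, insulin and glucose drive the liver to make fatty acids and cholesterol, through the transcription factors SREBP1c, ChREBP and SREBP2. During a fast insulin falls, glucagon and glucocorticoids rise, and fatty acids released by adipose tissue activate PPARα, which turns on fatty acid oxidation and ketone production, while FOXO1 and the glucocorticoid receptor turn on gluconeogenesis and amino acid breakdown. A liver that keeps its flexibility switches between these programmes with each cycle of feeding and fasting.

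Library totals ranged from 41364448 to 57583153 counts and were highest in CD fed mice, from 55415835 to 57583153. The TMM factors were from 0.929 to 0.984 in the 8 CD libraries and higher, up to 1.13, in the 8 HFD libraries, and the common coefficient of variation between mice was 19.2%. The hepatocyte markers, of which 9 of 10 were matched and tested (Alb, Ttr, Apoa1 and others), summed to between 90026 and 159583 CPM in single libraries. Whether these differences in depth and composition contributed to the interaction was not tested.

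The interaction genes were first sorted by their fasting response in each diet. In 294 of the 390 (75.4%) the response was lost, meaning that fasting passed the threshold in CD and not in HFD. In 29 it was reduced (same sign in both diets, smaller in HFD), in 48 gained (past the threshold in HFD alone), in 12 reversed (past it in both diets with opposite signs), in 1 enlarged and in 6 it passed in neither diet. These classes read the pairwise contrasts of the same libraries and carry no further test. Over all genes tested, 25.2% passed for fasting in CD and 8.86% for fasting in HFD. The fasting change passed in CD in 336 of the 390 interaction genes and in HFD in 90. The lost genes had a median absolute log2 change of 0.77 in CD and 0.18 in HFD, against 0.25 and 0.19 over all genes tested. In 197 of the 294 lost genes the HFD estimate had the opposite sign to that in CD, and in 97 the same sign. The 29 reduced genes had the larger responses, with medians of 2.02 in CD and 0.66 in HFD, and the gained genes had 0.26 and 0.90. The class rules favour such sizes, since a reduced gene must pass in both diets and still differ between them. In the plot of the fasting change in CD against that in HFD the lost genes lie along the horizontal axis. The class of a gene depends on where a threshold falls: when an unadjusted p under 0.05 was used for the fasting contrasts, 90 of the 390 were reversed, 49 reduced and 0 unclassed.

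**Figure D1:**
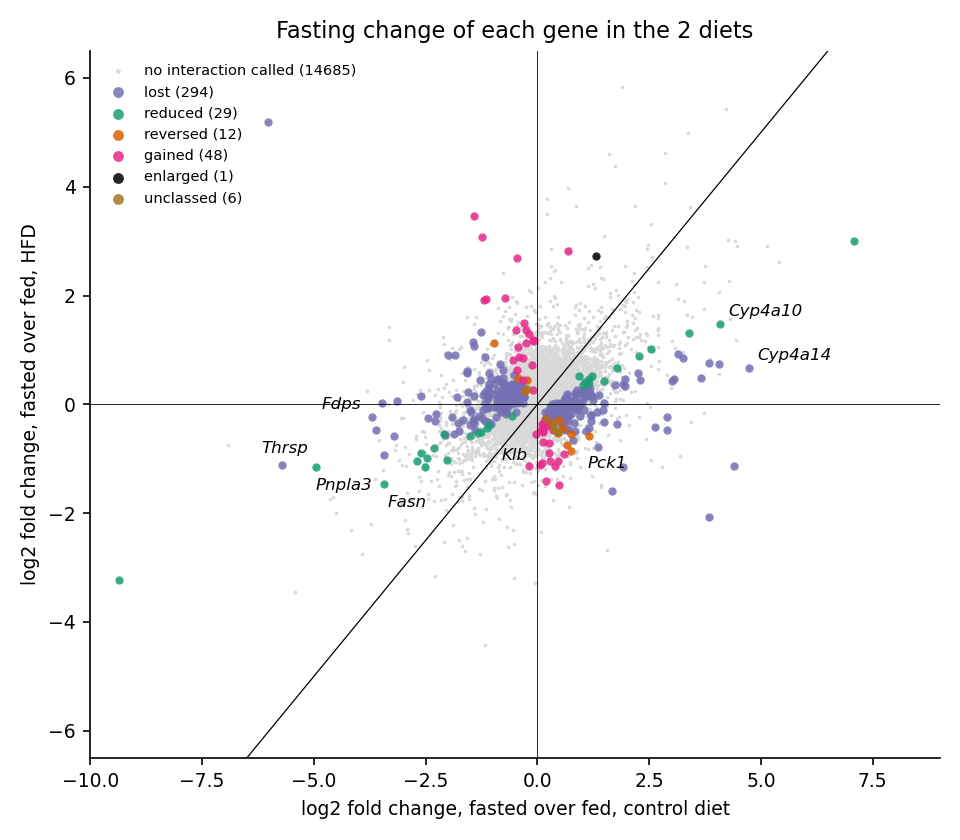
Fasting change of each of 15075 genes, as log2 fold change of fasted over fed livers, in the control diet (horizontal axis) and in the high-fat diet (vertical axis). Grey points had no interaction called, coloured points are the 390 interaction genes by response class (294 lost, 29 reduced, 12 reversed, 48 gained, 1 enlarged, 6 unclassed), and the diagonal marks an equal change in both diets.

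The interaction equals the HFD difference in fasted mice minus the HFD difference in fed mice, so its share held by each feeding state can be read off directly. The fed share of a gene is the part of its interaction given by the fed livers. With cuts at 2/3 and 1/3, each rounded to 3 decimals, it lay at or above the upper cut in 135 interaction genes (34.6%, fed-level genes), at or below the lower cut in 98 (25.1%, fasted-level genes) and between these cuts in 157 (40.3%, mixed genes). The median fed share was 0.55, with 0.58 in positive and 0.51 in negative genes. Next to the cuts, Gcnt4 was fed-level with a share of 0.669 and Fyn mixed with a share just under the cut, and Tnfrsf11b was fasted-level with 0.331 and Cdh5 mixed with 0.345. None of the 29 reduced genes was fasted-level, and 17 of them were fed-level.

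The diet difference of most interaction genes had opposite signs in the fed and the fasted liver by its estimates, 354 of 390 against 44.2% of all genes tested. The genes were chosen for a difference between these 2 diet differences, which favours opposite signs, so the counts are a description. Of the 185 positive genes, 182 had a fed level estimated as lower with HFD and 172 a fasted level estimated as higher. Of the 205 negative genes, 197 were higher in HFD when fed and 193 lower in HFD when fasted. By the test, HFD differed from CD only in fed mice in 184 genes, only in fasted mice in 144, in both states in 11 and in neither in 51. Past the threshold in one state and not in the other is a description and not itself a test of that difference. The shares of all tested genes that passed were 7.50% for HFD in fed mice and 7.70% for HFD in fasted mice. The fed libraries of the diets were fully separated in 257 interaction genes, and the fasted libraries in 191. Over all genes tested, 15.7% were separated in fed and 14.0% in fasted mice, and these counts too are a description.

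**Figure D2:**
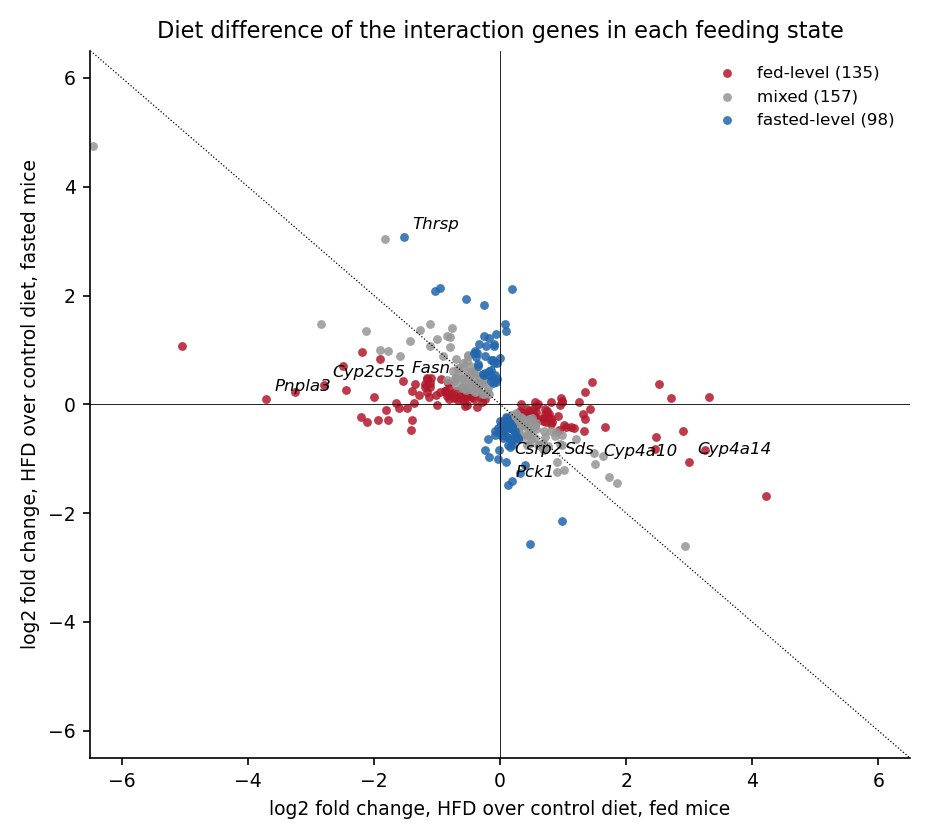
Diet difference of the 390 interaction genes, as log2 fold change of HFD over control diet, in fed mice (horizontal axis) and in fasted mice (vertical axis), coloured by whether the fed level, both levels or the fasted level held the interaction (135 fed-level, 157 mixed and 98 fasted-level genes). The dotted line marks equal and opposite differences, and 354 genes have estimates of opposite sign in the 2 states.

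Genes of fatty acid synthesis had mostly positive interaction estimates (19 of 20), and 7 passed. Of 20 lipogenic genes tested, 7 had a positive interaction and 0 a negative one, with a median interaction of 0.89 on the log2 scale against -0.0015 over all genes, and 14 were positive at an unadjusted p under 0.05. In CD, 17 of the 20 fell on fasting, with a median log2 change of -1.89. In HFD, 11 fell, with a median of -0.81. In fed mice 11 were lower in HFD than in CD, by a median log2 difference of -0.91, while in fasted mice the median difference was -0.01, with 3 genes higher and 1 lower. The 7 called genes were Pnpla3, Fasn, Acly, Acaca, Acss2, Pklr and Thrsp, of which the first 6 were fed-level genes.

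Fasn, fatty acid synthase (ENSMUSG00000025153, chromosome 11, 120805846 to 120824547, minus strand, GRCm38), was at 874, 1527, 1244 and 874 CPM in the 4 CD fed libraries and at 111, 86.1, 120 and 98.6 CPM in CD fast. In HFD it was at 370, 441, 336 and 401 CPM in fed and at 161, 122, 164 and 111 CPM in fasted livers. All HFD fed libraries were below all CD fed libraries, whereas the fasted libraries of the diets overlapped. The log2 change on fasting was -3.44 (SE 0.20) in CD and -1.47 (SE 0.19) in HFD, an interaction of 1.97 (SE 0.26, adjusted p = 0.00287).

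Acly, which makes the cytosolic acetyl-CoA that fatty acids and cholesterol are built from, was at 507, 1016, 661 and 631 CPM in CD fed and at 229, 192, 213 and 190 CPM in HFD fed livers. After the fast it was at 106, 107, 119 and 175 CPM in CD and at 111, 99.1, 112 and 94.4 CPM in HFD. The diets again separated without overlap in the fed state and overlapped in the fasted state, and the interaction was 1.49 (SE 0.27, adjusted p = 0.0132). Acaca, the acetyl-CoA carboxylase that commits acetyl-CoA to fatty acid synthesis, had means of 289 ± 45.8 CPM (CD fed), 71.1 ± 8.55 (CD fast), 145 ± 12 (HFD fed) and 70.8 ± 7.76 (HFD fast), each with the SD over 4 libraries. Its fed share of 1.01 placed the whole of the interaction of 0.99 (SE 0.17, adjusted p = 0.0114) in the fed liver.

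Acss2, which makes acetyl-CoA from acetate, was at 408 ± 156 CPM (SD, 4 libraries) in CD fed livers, between 80.0 and 84.7 CPM in CD fast livers and between 47.6 and 104 CPM in all 8 HFD libraries, with an interaction of 1.99 (SE 0.35, adjusted p = 0.0122). Its exons overlap those of Acss2os, Ggt7 and Gss on the opposite strand, and the strand setting of the counting is not known here. Pnpla3, a lipase of lipid droplets that is induced by feeding, had the smallest interaction p of the lipogenic genes (log2 3.80, SE 0.42, adjusted p = 0.00116) and a fed share of 0.98. In CD fed livers 3 libraries had Pnpla3 at 13.6 to 14.2 CPM and CD fed 4 was at 6.61 CPM, and all 12 other libraries were at 1.28 CPM or lower. Pklr, the liver pyruvate kinase, fell in both diets (-2.69 and -1.03), and its interaction of 1.65 (SE 0.39, adjusted p = 0.0369) passed in 4 of the 16 fits with 1 library left out (leave-one-out), reaching 0.0819 without CD fed 2.

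Thrsp, the Spot 14 protein that tracks lipogenic activity, differed from the others in its level. It was at 183, 718, 783 and 371 CPM in CD fed and at 215, 149, 212 and 140 CPM in HFD fed livers, which overlapped. After the fast it was at 6.08, 5.99, 18 and 8.88 CPM in CD and at 49.0, 201, 45.0 and 33.7 CPM in HFD, with no overlap. The interaction of 4.59 (SE 0.81, adjusted p = 0.0132) had a fed share of 0.33. Srebf1, which encodes SREBP1c, had no interaction that passed (0.78, SE 0.28, adjusted p = 0.141), and its HFD estimate was positive in both feeding states (0.42 in fed and 1.21 in fasted mice). Scd1, a fatty acid desaturase (2.18, SE 0.86, adjusted p = 0.169), also did not pass. These members of the list were singled out after their values were seen.

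Genes of cholesterol synthesis had positive interaction estimates throughout, and their fasting decrease was lost in HFD in each called gene. All 25 genes of cholesterol synthesis and uptake tested had a positive estimate, 10 were called, 21 had an unadjusted p under 0.05, and the median interaction was 1.43. DESeq2 called 17 and limma-voom 8. In CD, 21 of the 25 fell on fasting, by a median log2 change of -1.76. In HFD 0 of the 25 passed in edgeR, DESeq2 or limma-voom, 4 had an unadjusted p under 0.05 and the median was -0.23. In fed mice 11 were lower in HFD, by a median of -1.11, and in fasted mice 0 passed in edgeR and limma-voom, 2 in DESeq2 and 6 at an unadjusted p under 0.05, with a median of 0.36. All 10 called genes were of the lost class, 7 fed-level (Lss, Pmvk, Insig1, Acat2, Mvd, Dhcr7 and Sc5d) and 3 mixed, among them Fdps.

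Fdps, which makes farnesyl diphosphate, was at 30.8, 48.4, 37.6 and 27.5 CPM in CD fed and at 3.58, 2.38, 2.36 and 2.72 CPM in CD fast livers. In HFD fed livers it was at 7.81, 12.3, 6.86 and 5.99 CPM, and in HFD fast livers at 3.38, 4.42, 17.7 and 2.50 CPM. The HFD fast group held 1 high library, HFD fast 3, and the interaction was 3.47 (SE 0.68, adjusted p = 0.0173), called in each leave-one-out fit. Sc5d, a desaturase late in the pathway, was at 405 to 633 CPM (CD fed), 131 to 189 (CD fast), 206 to 265 (HFD fed) and 172 to 247 (HFD fast), with an interaction of 1.38 (SE 0.22, adjusted p = 0.00856).

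Insig1, the sterol sensor that holds SREBP proteins in the endoplasmic reticulum, was at 218 to 368 CPM in CD fed and 123 to 157 CPM in HFD fed livers, with no overlap. Its fasted libraries lay at 50.1 to 104 CPM in CD and 73.8 to 135 CPM in HFD, and the interaction was 1.51 (SE 0.32, adjusted p = 0.0241). The library HFD fast 3 stood apart for the whole list: the median gene lay 0.47 below its CD fed mean on the log2 scale there and between 1.41 and 1.96 below it in the other 3 HFD fast libraries. Without HFD fast 3, 6 of the 25 genes were called, 24 estimates were positive and the median interaction was 1.14. Without CD fed 2 it was 4 called, 25 positive and 1.33. The count was 5 without HFD fed 3, 6 without CD fast 1, CD fast 2, CD fed 3 or HFD fed 1, and at most 15, without HFD fast 4.

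Promoter windows of RefSeq (GRCm38.p6, from 250 bases before to 50 after the start, 1 window per symbol) were matched to 136 of the 185 positive and 158 of the 205 negative genes, and to 11041 of the 15016 symbols tested. The windows were searched on both strands for letters associated with the feeding and fasting factors above, and for those of the D-box and HNF4. The SRE core TCACNCCA was in 2.94% of the windows of positive genes, 5.06% of negative and 3.66% of all tested genes. The E-box CACGTG was in 7.35%, 10.1% and 9.91%, and the DR1 core AGGNCAAAG in 4.41%, 2.53% and 1.70%. The FOXO letters TGTTTAC were in 1.47%, 3.16% and 2.62%, the spaced glucocorticoid letters ACANNNTGT in 6.62%, 6.33% and 4.45%, the D-box TTATGNAA in 3.68%, 2.53% and 2.13%, and the HNF4 letters CAAAGTCCA in 0.735%, 0.633% and 0.525%. The DR1 and HNF4 letters can overlap each other. No share of one direction was tested against another. Among the called lipogenic and cholesterol genes with a window, 7 of each, the E-box was in Insig1 and Sc5d and the SRE core in none. The 250 bases before the start are shown for these 2 genes, with the E-box in capitals, and for Fasn and Pnpla3, the lipogenic genes with the smallest interaction p, in which none of the letters searched was found; each runs 5′ to 3′ on the strand of the gene.
Insig1 (chr5:28071162-28071411, plus strand): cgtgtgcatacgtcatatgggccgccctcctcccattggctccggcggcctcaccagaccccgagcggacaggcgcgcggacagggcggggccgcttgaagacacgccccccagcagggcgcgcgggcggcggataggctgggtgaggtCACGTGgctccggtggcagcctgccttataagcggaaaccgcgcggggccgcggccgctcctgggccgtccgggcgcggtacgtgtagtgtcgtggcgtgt
Sc5d (chr9:42264301-42264550, minus strand): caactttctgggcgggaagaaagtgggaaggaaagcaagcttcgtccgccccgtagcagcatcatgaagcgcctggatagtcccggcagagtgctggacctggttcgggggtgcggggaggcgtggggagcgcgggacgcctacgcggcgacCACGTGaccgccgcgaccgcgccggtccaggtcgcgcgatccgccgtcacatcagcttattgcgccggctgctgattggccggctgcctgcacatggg
Fasn (chr11:120824548-120824797, minus strand): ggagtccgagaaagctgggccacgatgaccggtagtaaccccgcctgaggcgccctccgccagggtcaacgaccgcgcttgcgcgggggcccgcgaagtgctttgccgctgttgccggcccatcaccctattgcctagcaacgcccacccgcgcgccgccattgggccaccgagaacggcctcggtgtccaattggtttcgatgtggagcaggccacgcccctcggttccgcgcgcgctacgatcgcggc
Pnpla3 (chr15:84167566-84167815, plus strand): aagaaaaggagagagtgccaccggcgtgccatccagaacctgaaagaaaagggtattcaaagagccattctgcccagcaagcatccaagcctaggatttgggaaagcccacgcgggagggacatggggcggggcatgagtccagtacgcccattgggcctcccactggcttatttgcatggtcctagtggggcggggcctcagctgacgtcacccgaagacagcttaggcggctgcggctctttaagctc

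**Figure D3:**
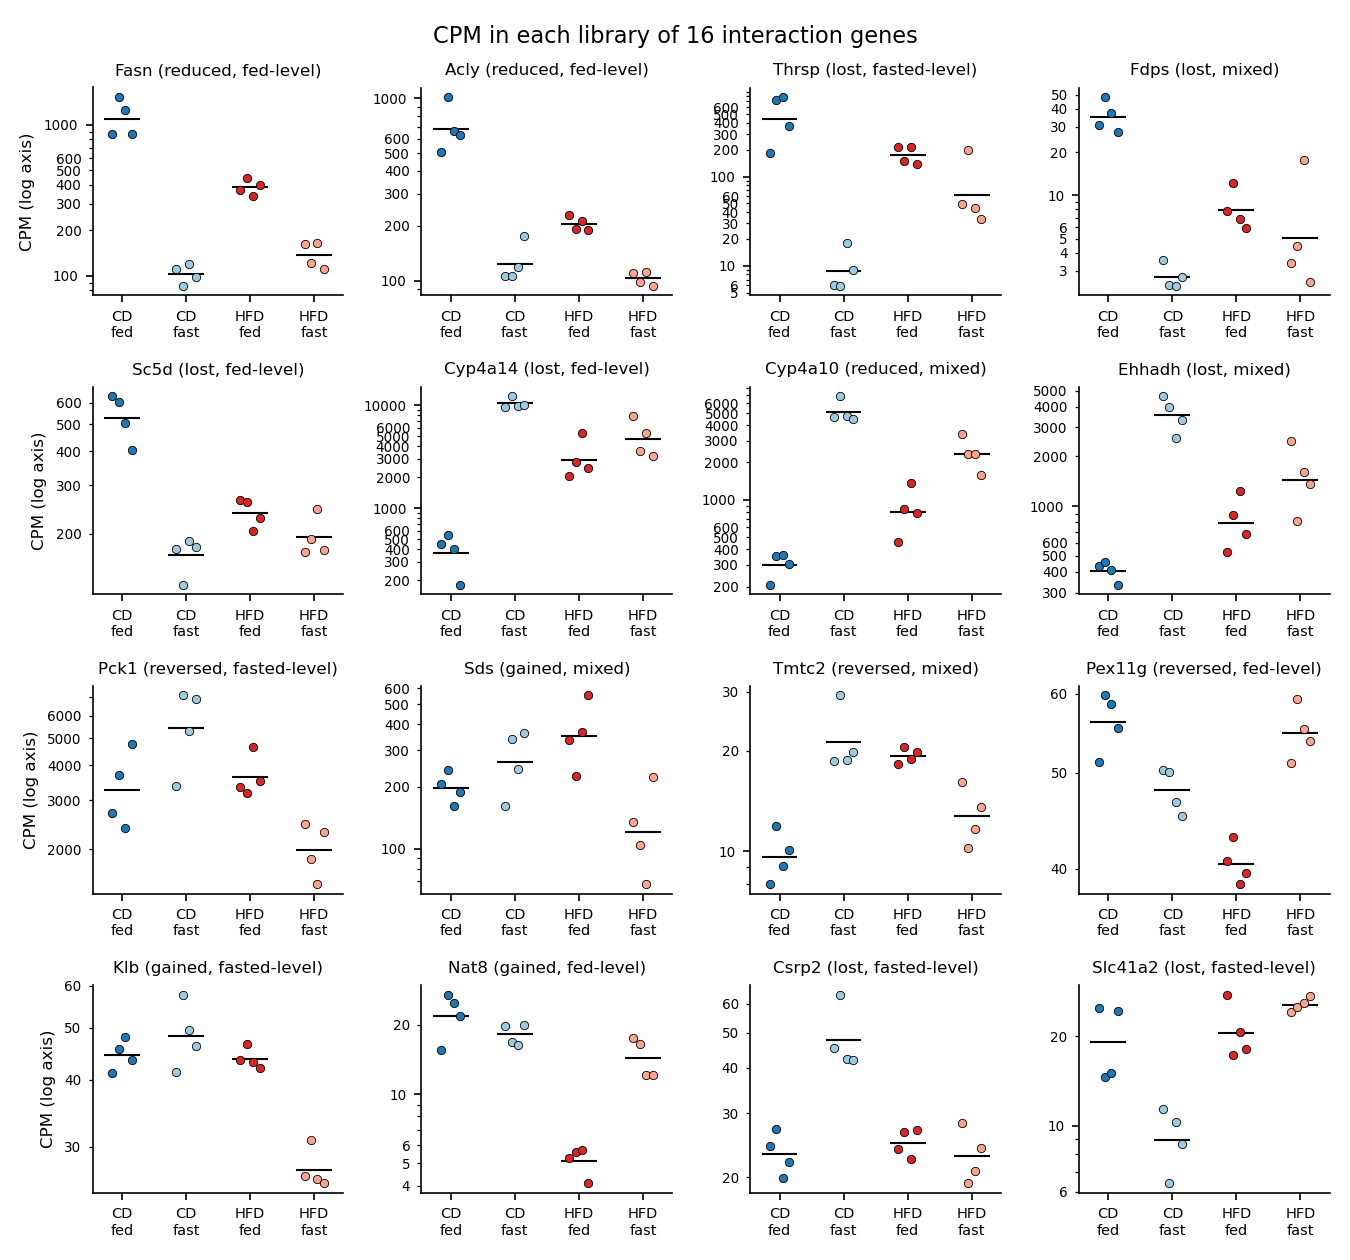
CPM (log axis) of 16 interaction genes in each library of the 4 groups, 1 point per mouse, with the response and level class in the title of each panel; horizontal bars are geometric means of 4 libraries. The libraries of the diets do not overlap for Fasn and Acly in the fed groups and for Klb and Csrp2 in the fasted groups. For Cyp4a14 and Cyp4a10 they do not overlap in either state. By edgeR the diet difference in fasted mice passed for Cyp4a10 (adjusted p = 0.0327) and not for Cyp4a14 (adjusted p = 0.0756).

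Genes of fatty acid oxidation had mostly negative interaction estimates (27 of 30), and 6 passed. Of 30 genes of fatty acid oxidation and ketogenesis, 6 had a negative interaction (Ehhadh, Eci2, Decr1, Acadl, Hadhb and Hadha) and 0 a positive one, 21 were negative at an unadjusted p under 0.05, and the median interaction was -0.54. On fasting 25 of the 30 rose in CD, by a median log2 change of 0.89, and 14 rose in HFD, with a median of 0.38. In fed mice 9 were higher in HFD and 0 lower (median 0.35), and in fasted mice 1 was lower and 0 higher (median -0.13). For these diet differences DESeq2 called 18 in fed and 5 in fasted mice, and limma-voom 12 and 1. At an unadjusted p under 0.05 there were 21 and 9. Of the 6 called genes 3 were fed-level and 3 mixed. Leaving out 1 library gave 2 (without CD fed 2) to 10 (without HFD fast 1) called genes and a median of -0.60 to -0.45. It gave 3 without CD fed 1, CD fed 4, CD fast 2, HFD fed 2, HFD fed 3, HFD fast 3 or HFD fast 4, and DESeq2 called 18.

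Ehhadh, the bifunctional enzyme of peroxisomal β-oxidation and a PPARα target, was at 434, 457, 411 and 334 CPM in CD fed and at 4637, 4014, 2572 and 3311 CPM in CD fast livers. In HFD it was at 527, 880, 1237 and 674 CPM when fed and at 2465, 809, 1618 and 1370 CPM when fasted. The HFD groups overlapped each other and lay between the CD groups, with no overlap between the diets in either state. The log2 change was 3.15 (SE 0.32) in CD and 0.92 (SE 0.30) in HFD, an interaction of -2.24 (SE 0.43, adjusted p = 0.0165).

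The mitochondrial enzymes had smaller but similar values. Acadl, the long-chain acyl-CoA dehydrogenase, was at 170 to 199 CPM (CD fed), 375 to 393 (CD fast), 239 to 310 (HFD fed) and 289 to 369 (HFD fast), and its interaction was -0.75 (SE 0.13, adjusted p = 0.0114). In each feeding state the diets did not overlap. Hadhb, a subunit of the trifunctional protein, was at 206 to 243 CPM in CD fed and 269 to 341 in HFD fed livers, and at 472 to 517 and 370 to 488 CPM after the fast. Its interaction was -0.70 (SE 0.14, adjusted p = 0.0205), and that of Hadha, the other subunit, was -0.66 (SE 0.15, adjusted p = 0.0344), which reached 0.0751 without HFD fed 3. Eci2, an enoyl-CoA isomerase, was higher in HFD fed livers (0.96) and showed no change on fasting that passed in HFD (-0.05), but its interaction passed in 3 of the 16 leave-one-out fits. Cpt1a, which brings fatty acids into mitochondria (-0.73, SE 0.24, adjusted p = 0.109), Ppara (0.05, SE 0.20, adjusted p = 0.921) and Fgf21 (0.27, SE 0.82, adjusted p = 0.885) did not pass.

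The genes of ω-oxidation and acyl-CoA thioesterases, many of them strong PPARα targets, had the most negative median of the lists in the fit of all libraries. Of 17 tested, 7 were called negative (Cyp4a14, Cyp4a10, Cyp4a31, Acot1, Acot2, Acot3 and Acot12) and 0 positive, with a median of -0.95. The median log2 change on fasting was 1.61 in CD, with 13 genes higher, and 0.61 in HFD, with 4 higher. In fed mice 7 were higher in HFD and 1 lower (median 0.67), and in fasted mice 0 were higher and 2 lower (median -0.42). For these diet differences DESeq2 called 9 in fed and 5 in fasted mice, and limma-voom 8 and 1. Of the 7 called genes 2 were fed-level and 5 mixed. Without HFD fast 4 the list median was -0.77, less negative than the -0.78 of the glucocorticoid-induced genes.

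Cyp4a14, a fatty acid ω-hydroxylase (ENSMUSG00000028715, chromosome 4, 115486200 to 115496142, minus strand), was at 452, 546, 398 and 180 CPM in CD fed and at 9651, 12183, 9865 and 9954 CPM in CD fast livers. In HFD it was at 2064, 2788, 5297 and 2425 CPM when fed and at 7818, 3553, 5336 and 3174 CPM when fasted. Neither HFD group overlapped a CD group, and the HFD groups overlapped each other. The fasting change was 4.72 (SE 0.41) in CD and 0.66 (SE 0.35) in HFD, and of the interaction of -4.06 (SE 0.51, adjusted p = 0.00287) a share of 0.74 was in the fed level.

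Cyp4a10, its neighbour at 115518264 to 115533649, was at 207 to 358 CPM (CD fed), 4487 to 6835 (CD fast), 454 to 1374 (HFD fed) and 1590 to 3381 (HFD fast). None of these 4 ranges overlapped another, and the interaction was -2.61 (SE 0.42, adjusted p = 0.00838). Acot1, a cytosolic thioesterase that releases fatty acids from CoA, was at 27.4 to 37.3 CPM (CD fed), 218 to 341 (CD fast), 63.3 to 158 (HFD fed) and 54.0 to 190 (HFD fast), and its interaction was -2.58 (SE 0.47, adjusted p = 0.0142). The Cyp4a genes lie in 1 cluster and are near copies of each other, as are Acot1 to Acot3, so that the counting may have split their reads, and the members are not independent. HFD fed 3 was the highest fed library for these genes: the median gene of the list lay 1.32 above the CD fed mean there and 0.45 to 0.60 above it in the other 3 HFD fed libraries. Without HFD fed 3, 3 of the 17 were called and the median was -0.73. On this measure the CD fast libraries lay 1.40 to 1.61 above the CD fed mean. HFD fast 4 lay 0.77 above the CD fed mean, against 1.58 to 1.62 in the other 3 HFD fast libraries, which were thus not below the CD fast range. Without HFD fast 4, 4 were called with a median of -0.77. The count was also 3 without CD fed 2 or CD fed 4, and 4 without CD fast 2, CD fast 4 or HFD fast 3.

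**Figure D4:**
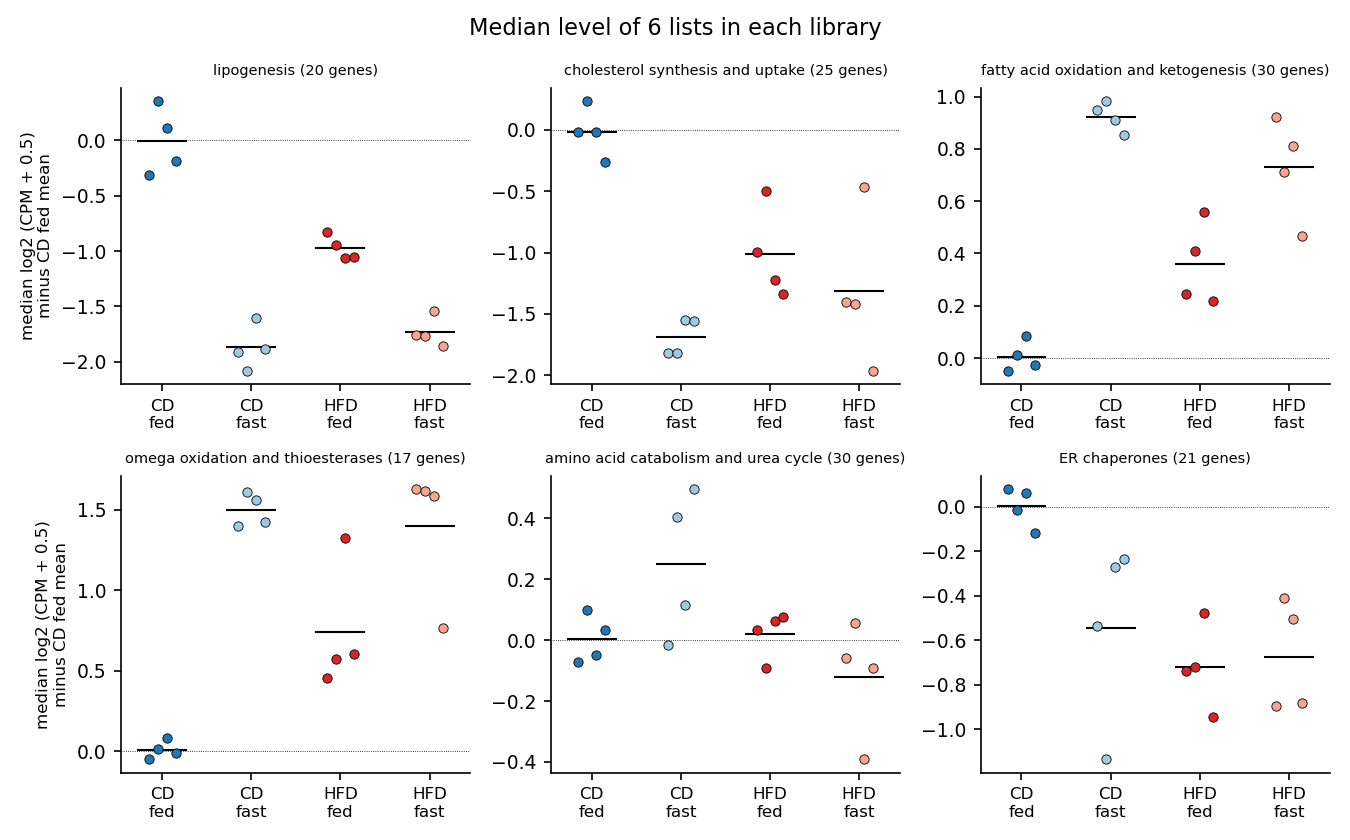
Median over the genes of 6 lists of log2 (CPM + 0.5) minus each gene's mean over the 4 CD fed libraries, 1 point per library and a bar for the mean of 4 libraries in each group. Lipogenesis is lower with HFD in the fed groups and at a similar level in the fasted groups, fatty acid oxidation is higher in the fed HFD group, and HFD fast 3 stands above the other HFD fast libraries for cholesterol synthesis.

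Genes of gluconeogenesis and amino acid breakdown also had mostly negative estimates, and there more genes differed between diets in fasted than in fed mice. Of 22 genes of gluconeogenesis and FOXO targets 1 was called, Pck1, and 9 were negative and 1 positive at an unadjusted p under 0.05, with a median interaction of -0.44. In fasted mice 6 were lower in HFD and 0 higher, and in fed mice 0 passed in edgeR and limma-voom, 1 in DESeq2 and 4 at an unadjusted p under 0.05. DESeq2 called 4 of these genes, and leaving out 1 library gave 0 calls (without CD fed 1, CD fed 2, CD fed 3, CD fast 2, CD fast 4, HFD fed 3 or HFD fast 3) to 2. Of 30 genes of amino acid catabolism and the urea cycle 4 were called negative (Sds, Sdsl, Asl and Tdo2), with a median of -0.56. DESeq2 called 9 of them. Leaving out 1 library gave 1 to 5, with 2 without CD fast 2 or HFD fed 4 and 1 without any one of the 4 CD fed libraries, CD fast 4, HFD fed 1, HFD fed 3, HFD fast 2 or HFD fast 3. In fasted mice 8 of the 30 were lower in HFD, by a median over the list of -0.39, and in fed mice 1 was higher, with a median of 0.02. For these diet differences DESeq2 called 12 in fasted and 3 in fed mice. Of the 4 genes with a called interaction, 2 were fasted-level, 1 mixed and 1 fed-level.

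Pck1, the cytosolic PEPCK that commits carbon to gluconeogenesis (ENSMUSG00000027513, chromosome 2, 173153048 to 173159273, plus strand), was at 2704, 3692, 2388 and 4747 CPM in CD fed and at 3340, 3183, 4659 and 3518 CPM in HFD fed livers. After the fast it was at 3369, 7106, 5316 and 6915 CPM in CD and at 2459, 1848, 1503 and 2300 CPM in HFD. The fed groups overlapped, and each HFD fast library was below each CD fast library and each HFD fed library. The fed and fasted libraries of CD overlapped. The log2 change on fasting was 0.75 (SE 0.25, adjusted p = 0.0416) in CD and -0.86 (SE 0.25, adjusted p = 0.0467) in HFD, both near the threshold. The fed share of Pck1 was 0.07. The interaction of -1.60 (SE 0.36, adjusted p = 0.0296) passed in 9 of the 16 leave-one-out fits and reached 0.0666 without HFD fed 3.

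Sdsl, a serine dehydratase-like enzyme, was at 8.39 to 14.3 CPM in CD fed and 9.15 to 17.4 CPM in HFD fed livers. It was at 19.0 to 26.2 CPM in CD fast and at 7.09 to 11.7 CPM in HFD fast livers, with no overlap. The log2 change on fasting was 1.16 in CD and -0.44 in HFD, where it did not pass, and the interaction was -1.60 (SE 0.30, adjusted p = 0.0164). Its neighbour Sds, the serine dehydratase that feeds serine into gluconeogenesis, was at 161 to 239 CPM (CD fed), 162 to 363 (CD fast), 224 to 553 (HFD fed) and 67.4 to 222 (HFD fast). Sds fell on fasting in HFD (-1.48, SE 0.34, adjusted p = 0.0158), its interaction was -1.96 (SE 0.48, adjusted p = 0.0407), and this passed in 3 of the 16 leave-one-out fits. Its exons overlap Gm15690 and Plbd2 on the opposite strand.

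Asl, the urea cycle enzyme that splits argininosuccinate, was at 409 to 632 CPM (CD fed), 715 to 1767 (CD fast), 550 to 763 (HFD fed) and 308 to 587 (HFD fast). The fasted groups did not overlap between diets, and the interaction of -1.59 (SE 0.37, adjusted p = 0.0369) passed in 5 of 16 such fits. Tdo2, which opens the ring of tryptophan, was the exception in level: it was at 1158 to 1339 CPM in CD fed and at 1872 to 3261 CPM in HFD fed livers, and at 1344 to 1998 and 1442 to 1839 CPM after the fast (interaction -0.94, SE 0.23, adjusted p = 0.0435, passing in 3 of 16 such fits). Tat, tyrosine aminotransferase, did not pass (-2.07, SE 0.55, adjusted p = 0.0566), with 1265 to 3750 CPM in CD fast and 433 to 932 CPM in HFD fast livers. The glucocorticoid-induced genes, 20 tested, shared Sds and Tdo2 with these lists as their 2 called genes, and their median was -0.78. DESeq2 called 5, and the fits with 1 library left out called 0 to 3, with 0 in 8 of the 16. With the replicate number as a block, 5 were called.

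Of 20 genes of triglyceride synthesis and lipid droplets, 2 were called negative and the median was -0.38. DESeq2 called 6. The negative calls were 0 without CD fed 2, CD fed 3, CD fed 4, HFD fed 3 or HFD fast 4. Without CD fed 4 there was 1 positive call. The negative calls were 1 without CD fed 1, CD fast 2, HFD fed 4, HFD fast 2 or HFD fast 3. Without HFD fast 1 they were 4. The medians ran from -0.59 to -0.27 over the 16 fits. Plin5, which coats lipid droplets and ties them to mitochondria, was at 55.8 to 72.6 CPM in CD fed and 105 to 235 CPM in HFD fed livers, and at 114 to 193 and 89.9 to 169 CPM after the fast. Its interaction was -1.50 (SE 0.33, adjusted p = 0.0292) passed in 10 of the 16 leave-one-out fits and had a fed share of 0.88. Pnpla2, adipose triglyceride lipase, was at 66.0 to 82.6 CPM in CD fed, 117 to 166 in HFD fed, 111 to 278 in CD fast and 92.2 to 156 in HFD fast livers (interaction -1.39, SE 0.33, adjusted p = 0.0369), and this passed in 6 of 16 such fits and reached 0.0777 without HFD fast 3. In both genes the HFD fed libraries lay above all CD fed libraries.

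**Figure D5:**
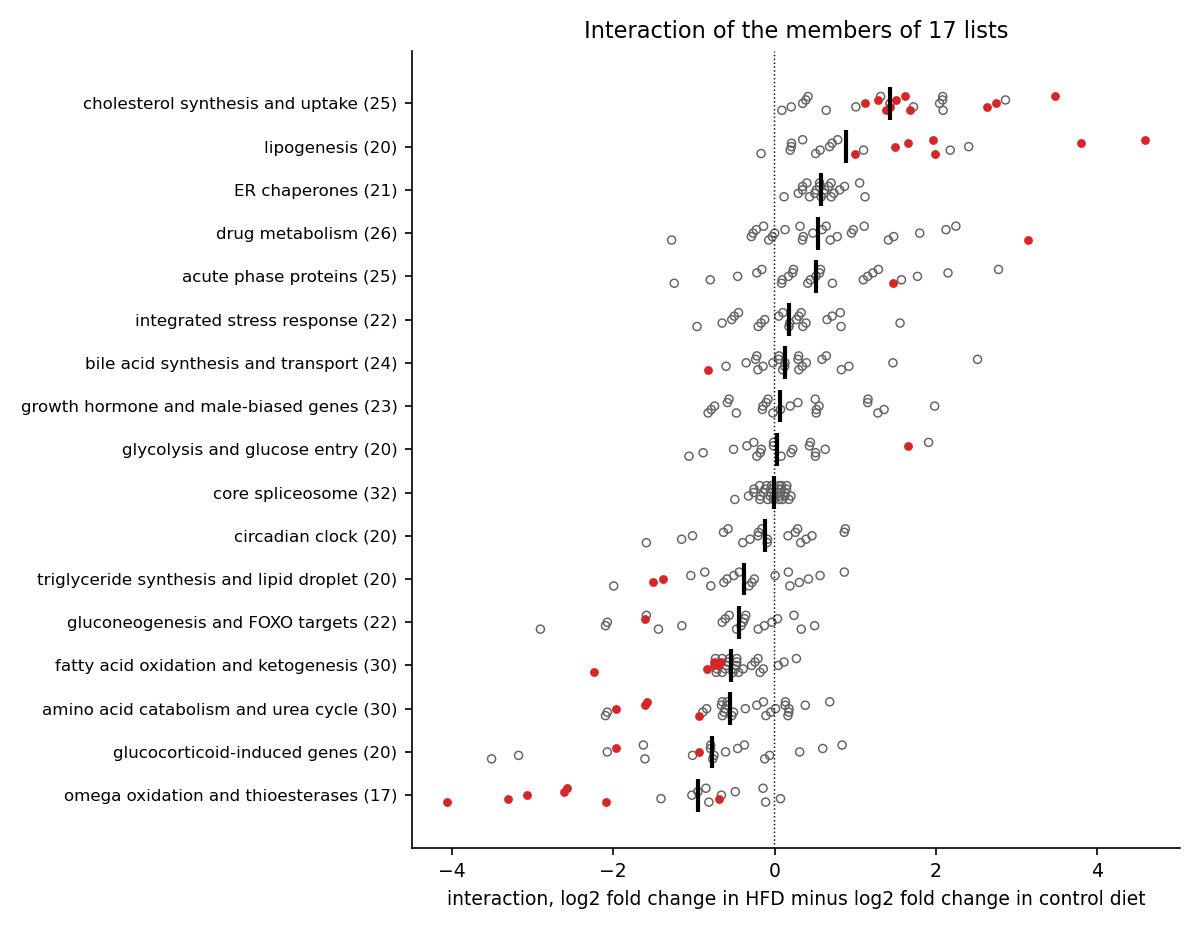
Interaction of each tested member of 17 pathway lists, as the log2 fasting change in HFD minus that in the control diet. Filled red points had an adjusted p under 0.05, open points did not, thick bars are list medians, numbers in brackets are genes tested and the dotted line is the median of all genes; the medians run from -0.95 for ω-oxidation and thioesterases to 1.43 for cholesterol synthesis.

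The 12 reversed genes changed on fasting in opposite directions in the 2 diets. Of these, 8 rose in CD and fell in HFD (Tmtc2, Dcaf6, Alkbh2, Gcnt4, Fbxo44, Gfra1, Fam20a and Pck1) and 4 fell in CD and rose in HFD (Pex11g, Samhd1, Lhfpl2 and the pseudogene Cyp21a2-ps). Their changes were small, with a median absolute log2 change of 0.53 in CD and 0.50 in HFD. Tmtc2, a mannosyltransferase of the endoplasmic reticulum, was at 7.98, 11.9, 9.07 and 10.1 CPM in CD fed and at 18.6, 29.2, 18.8 and 19.8 CPM in CD fast livers. In HFD it was at 18.2, 20.5, 18.8 and 19.8 CPM when fed and at 16.1, 10.3, 11.6 and 13.6 CPM when fasted, so that HFD fed overlapped CD fast livers and lay above all CD fed and HFD fast libraries. The interaction was -1.73 (SE 0.23, adjusted p = 0.00287).

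Dcaf6, a substrate receptor of a ubiquitin ligase, was at 40.9 to 50 CPM (CD fed), 59.4 to 65.1 (CD fast), 48.6 to 56.7 (HFD fed) and 40.7 to 48.0 (HFD fast), so that here HFD fed overlapped CD fed and not CD fast livers, and its interaction was -0.78 (SE 0.11, adjusted p = 0.00329). Alkbh2, a DNA repair demethylase, was at 2.97 to 3.93, 5.61 to 6.67, 5.65 to 7.49 and 3.74 to 5.19 CPM in the same order of groups (interaction -1.3, SE 0.19, adjusted p = 0.00379), and its exons overlap Usp30 on the opposite strand. Gcnt4, a glycosyltransferase, was at 7.03 to 8.58 CPM in CD fed and 11.1 to 18 CPM in HFD fed livers, and at 11.2 to 13.5 and 6.84 to 10.6 CPM after the fast. In these 3 genes each fasting change separated the 4 fed from the 4 fasted libraries within a diet.

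Pex11g, a peroxisomal membrane protein, was reversed in the other direction, with 51.3 to 59.8 CPM (CD fed), 45.2 to 50.3 (CD fast), 38.6 to 43.0 (HFD fed) and 51.1 to 59.4 (HFD fast). Its interaction was 0.67 (SE 0.10, adjusted p = 0.00379), and the lowest group was HFD fed, below all other libraries. Samhd1, which degrades deoxynucleotides, was at 23.8 to 28.3 CPM in CD fed and 24.4 to 26.4 in HFD fed livers, and at 20.4 to 22.6 and 27.4 to 33.8 CPM after the fast. Here the fasted level held the interaction of 0.53 (SE 0.10, adjusted p = 0.0177), with a fed share of 0.10.

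A fasting response was gained in 48 genes, 22 positive and 26 negative. Klb, β-klotho, the co-receptor through which the liver hears FGF15/19 and FGF21, was at 41.2, 45.6, 48.0 and 43.5 CPM in CD fed, at 41.3, 57.7, 49.5 and 46.3 in CD fast and at 43.5, 46.6, 43.1 and 42.0 in HFD fed livers. In HFD fast livers it was at 26.4, 30.8, 26.0 and 25.6 CPM, below every other library. The fasting change was 0.13 (SE 0.09) in CD and -0.69 (SE 0.09) in HFD, and the interaction of -0.81 (SE 0.13, adjusted p = 0.00838) had a fed share of -0.03, entirely in the fasted level.

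Nat8, an N-acetyltransferase, gained a rise. It was at 15.6, 27.1, 25.0 and 21.8 CPM in CD fed and at 5.29, 5.6, 5.72 and 4.09 CPM in HFD fed livers, and at 16.4 to 20 and 12.1 to 17.5 CPM after the fast in CD and HFD. HFD fed livers were below all other libraries, and the interaction was 1.78 (SE 0.24, adjusted p = 0.00287). Its relative Nat8f5 had an interaction of 2.70 (SE 0.44, adjusted p = 0.00856) and shares exons with Nat8f6, so that these genes of 1 family are uncertain. C4b, complement component C4, was at 1225 to 1531 CPM (CD fed), 1070 to 1407 (CD fast), 989 to 1226 (HFD fed) and 1602 to 1915 (HFD fast), and its interaction was 0.83 (SE 0.16, adjusted p = 0.0177). Limk1, an actin-regulating kinase, was at 2.50 to 3.89 CPM in the 12 libraries of the other groups and at 5.38 to 8.89 CPM in HFD fast livers (interaction 1.29, SE 0.26, adjusted p = 0.0201). In C4b and Limk1 the HFD fast libraries stood above all the others. Orm1, an acute phase protein with near-identical copies, was low in HFD fed livers (100 to 250 CPM against 283 to 541 CPM in the other libraries), but its interaction of 1.47 (SE 0.37, adjusted p = 0.0453) passed in 4 of the 16 leave-one-out fits and reached 0.0956 without HFD fed 3.

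The only enlarged gene was Cfap54, a protein of cilia, at 0.786 to 1.16 CPM (CD fed), 1.71 to 3.33 (CD fast), 0.569 to 0.830 (HFD fed) and 4.30 to 4.99 (HFD fast). It rose by 1.3 (SE 0.20) in CD and by 2.73 (SE 0.20) in HFD, an interaction of 1.42 (SE 0.28, adjusted p = 0.0173).

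Outside the lists, the lost genes with the smallest p included enzymes and regulators of several kinds. Pgd, which makes NADPH in the pentose phosphate pathway, was at 46.1 to 59.9 CPM in CD fed and at 20.7 to 32.1 CPM in all other libraries (interaction 0.98, SE 0.14, adjusted p = 0.00329). Mr1, which presents vitamin B metabolites to T cells, was at 5.69 to 10.2 CPM in CD fed and 2.64 to 4.61 CPM in all other libraries (interaction 1.73, SE 0.23, adjusted p = 0.00287). In these genes the CD fed group stood alone. Nrbp2, a pseudokinase, had the opposite form, at 42.5 to 54.8 CPM in CD fed and 63.8 to 84.1 CPM in all other libraries (interaction -0.90, SE 0.12, adjusted p = 0.00287). The smallest p of all belonged to E030018B13Rik, a protein-coding gene of low level outside the rule for named genes and chosen after its values were seen. It was at 0.111 to 0.286 CPM (CD fed), 1.99 to 5.71 (CD fast), 0.832 to 2.72 (HFD fed) and 0.503 to 1.15 (HFD fast), and its interaction was -5.54 (SE 0.61, adjusted p = 0.00116).

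In other lost genes the CD fast group stood alone. Csrp2, a LIM-domain protein, was at 45.3, 63.6, 42.3 and 42.0 CPM in CD fast livers and between 19.2 and 28.3 CPM in all other libraries, with an interaction of -1.16 (SE 0.21, adjusted p = 0.0132) and a fed share of 0.08. Slc41a2, a magnesium transporter, was at 6.4 to 11.3 CPM in CD fast and at 14.5 to 27.6 CPM in all other libraries (interaction 1.39, SE 0.29, adjusted p = 0.0220). Tmem243 was at 57.7 to 72.0 CPM in CD fast and 37.0 to 51.9 CPM elsewhere (interaction -0.89, SE 0.13, adjusted p = 0.00379). For Abcb4 and Cyp2c55 the CD fast libraries overlapped those of HFD. Abcb4, the phospholipid exporter of bile and the called gene of the bile acid list, was at 300 to 332 CPM (CD fed), 571 to 712 (CD fast), 400 to 493 (HFD fed) and 384 to 603 (HFD fast), and its interaction was -0.82 (SE 0.17, adjusted p = 0.0225). Cyp2c55, the called gene of the drug metabolism list and a member of a family of near copies, was at 3.91 to 8.42 CPM in CD fed livers and at 1.27 CPM or lower in the other 12 libraries (interaction 3.15, SE 0.57, adjusted p = 0.0132).

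Other lists had fewer calls. All 21 ER chaperones and folding factors had positive estimates, with a median of 0.58, but 0 were called in edgeR, 10 had an unadjusted p under 0.05, DESeq2 called 3 and limma-voom 0. In edgeR 1 was called without CD fed 4 and 1 without HFD fast 1. In fed mice 12 of them were lower in HFD, and in fasted mice 0 passed in edgeR and limma-voom, 1 in DESeq2 and 4 at an unadjusted p under 0.05. Calr, the chaperone calreticulin, did not pass (0.74, SE 0.23, adjusted p = 0.0970). The acute phase proteins (25 tested) had a median of 0.51, and 11 rose on fasting in HFD against 6 in CD, where 5 fell. The called gene was Orm1. The calls were 0 without any one of the CD fed libraries, CD fast 1, CD fast 3 or CD fast 4. They were also 0 without HFD fast 3, HFD fed 2 or HFD fed 3, and with the replicate number as a block. They were 2 without HFD fast 1 or HFD fast 4. Drug metabolism (26 tested) had a median of 0.53 with 1 call, and this median was 0.12, with 15 positive estimates, without HFD fast 2 and 0.82 without CD fast 3. It had 2 positive calls without HFD fast 1 and 1 positive and 1 negative call without CD fast 1. Bile acid synthesis and transport (24 tested) had a median of 0.13 with 1 call. This median was 0.22 without HFD fed 2 and 0.21 without CD fed 2, and the calls were 0 without CD fed 2 or HFD fed 3 and 2 without HFD fast 1. The median was 0.03 for glycolysis and glucose entry (20 tested) with 1 call, Pklr. With 1 library left out, glycolysis had 2 negative and 0 positive calls without CD fast 1, 2 positive and 1 negative without CD fast 3, 2 positive without CD fed 1, 1 positive without HFD fed 2 or HFD fast 1 and 0 in each of the other fits. DESeq2 called 4 genes of drug metabolism, 4 acute phase proteins, 5 genes of glycolysis and 1 of bile acids. The circadian clock (20 tested, median -0.12), growth hormone and male-biased genes (23, 0.07), the integrated stress response (22, 0.18) and the core spliceosome (32, -0.01) had 0 calls in edgeR. At an unadjusted p under 0.05 they held 2, 5, 5 and 3 genes, DESeq2 called 0, 1, 1 and 0, and limma-voom called 0 in each. With 1 library left out, the median changed sign in at least 1 fit for growth hormone genes (-0.06 to 0.26), the integrated stress response (-0.11 to 0.25), the spliceosome (-0.05 to 0.06) and glycolysis (-0.03 to 0.16). The clock median was -0.26 without CD fast 1, -0.23 without HFD fast 2 and -0.08 without CD fast 3 or HFD fed 1. Without CD fast 1 the integrated stress response had 2 negative calls, and the growth hormone genes had 1 positive call without CD fed 3 or HFD fed 2.

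The hepatocyte markers had 7 of 9 estimates negative and a median of -0.20, with 0 calls in edgeR and limma-voom, 1 in DESeq2 and 2 at an unadjusted p under 0.05. In edgeR 1 was called with upper quartile scaling, with DESeq2 size factors, without CD fast 4 and without HFD fed 4. The hepatocyte median was -0.13 without HFD fed 4 and -0.12 with total count scaling. Markers of the other liver cells other than cholangiocytes had mostly positive estimates. All 13 macrophage markers had positive estimates (median 0.63, 5 at an unadjusted p under 0.05), as did 10 of 10 lymphocyte markers (0.91, 3), 10 of 10 stellate cell markers (0.63, 1) and 9 of 10 endothelial markers (0.50, 7). Without CD fed 1 the macrophage median was 0.39, with 10 of 13 positive, and the lymphocyte median 0.47, with 9 of 10. Without HFD fast 4 the stellate median was 0.31, with 8 of 10 positive. Of these markers edgeR called Cdh5, VE-cadherin of endothelial cells (0.75, SE 0.14, adjusted p = 0.0164), and DESeq2 called 3 endothelial markers and 1 macrophage marker. By edgeR there were 3 endothelial calls with total count scaling, 2 with upper quartile scaling or without CD fast 2, HFD fast 2 or HFD fed 3, and 1 macrophage call without HFD fed 4. The summed level of the endothelial markers was 429 to 467 CPM (CD fed), 287 to 368 (CD fast), 377 to 442 (HFD fed) and 358 to 467 (HFD fast). The macrophage markers summed to 382 to 715, 259 to 421, 415 to 639 and 348 to 578 CPM in the same order, the stellate markers to 224 to 289, 134 to 226, 228 to 422 and 230 to 427 CPM, and the lymphocyte markers to 10.9 to 24.5, 11.1 to 13.6, 10.7 to 17.2 and 12 to 26.8 CPM. Their lowest levels were thus in CD fast livers for macrophage, stellate and endothelial markers, and the part of cell composition in the interaction was not tested. Of 6 erythroid markers all were positive (median 0.64) and Alas2 was called (0.71, SE 0.15, adjusted p = 0.0248), in 14 of the 16 leave-one-out fits and not without CD fed 2 or HFD fast 3. The erythroid median was 0.39 without HFD fast 3 and 1.01 without CD fast 2. The 6 cholangiocyte markers tested had a median of -0.70, and it was 0.12 without HFD fed 4. Adipocyte markers, 2 of 6 tested, summed to 13.6 to 77.8 CPM in HFD fast livers, and to at most 14.9 CPM elsewhere. The highest was HFD fast 2, where Cfd alone was at 70.1 CPM, while Adipoq, which defines adipocytes, was at 0.976 CPM or lower in every library. Of 8 pancreatic acinar markers 2 were tested, 4 were at or under 3 counts in every library, and none was called.

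The interaction genes were more abundant than the average, with a median of 24.0 CPM against 10.6 CPM over all genes tested, and their interactions had a median SE of 0.19 against 0.21. Of the 390, 367 (94.1%) were protein coding, against 88.3% of all tested, and the exons of 157 (40.3%) overlapped another gene, against 36.3%. Among the genes named, exons on the opposite strand overlapped in Pklr (with Hcn3), Hadha (Garem2), Tmem243 (Dmtf1), Lss (4930483K19Rik), Eci2 (Gm16984), Acot12 (4833422C13Rik), Acot3 (4732463B04Rik), Tmtc2 (Gm15663), Gcnt4 (Gm48597), Pex11g (Gm44775), Nrbp2 (Gm48952) and Cyp2c55 (Gm23800). Exons on the same strand overlapped in Pnpla3 (Gm49513), Fdps (Gm43738) and Acot3 (Gm49366). The values of these genes may hold reads of their partners. At the threshold itself, Serpina10 was the last gene inside (0.69, SE 0.17, adjusted p = 0.0495) and Themis the first outside (3, SE 0.77, adjusted p = 0.0501). On the scale of mean CPM, all 390 kept the sign of their difference of differences. Many calls changed when a library was left out: 123 of the 390 were called in all 16 fits that each left out 1 library, and the count of interaction genes was 147 without CD fed 2, 162 without HFD fast 3 and 168 without HFD fed 3. With total count scaling in place of TMM, 440 genes were called, of which 306 were positive.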

How the data were processed

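RNA-seq counts of 16 mouse livers were used, 1 library per mouse and 4 per group. The counts were deposited by the authors as a table of whole numbers for 46078 genes. According to the methods, poly(A) RNA libraries (NEBNext Ultra II) were aligned with the fr-firststrand setting. The submitters' processing notes name CASAVA 1.8.4, TopHat2 2.0.11, featureCounts and GRCm38/mm10, and the methods name another version of CASAVA. The annotation release and the strand setting of the counting are not given in the sources used here. Total counts per library ranged from 41364448 to 57583153.

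From these counts, genes were filtered with filterByExpr (15075 kept), scaled by TMM and tested with edgeR 4.0.16 (glmQLFit and glmQLFTest, R 4.3.3) in 1 model of 4 group means over all libraries, with the interaction and the 4 pairwise differences as contrasts and Benjamini-Hochberg adjusted p under 0.05. The alternatives were DESeq2 1.42.0, limma-voom (limma 3.58.1), other scalings, filters and thresholds, a replicate block and leaving out each library. The model was tested on simulated data. Symbols and positions came from GENCODE M21 (GRCm38), and promoter sequences from RefSeq.

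Genes were named where, among protein-coding interaction genes with a mean of at least 100 counts, they were the 4 with the smallest p of a response or level class in 1 direction, or where they were called in 1 of 17 pathway lists. For lists with fewer than 2 called genes, the 2 members with the smallest p could be named as well. There were also 9 lists of cell type markers. The genes, lists and rules were chosen with earlier results of these data known. All 16 columns of the table were used. Some genes of the lists and of the named rule are not reported here.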

Additional observations from a re-analysis of the deposited data

Results flagged for a closer look

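The fasting change differed between the diets, by the test of the difference itself, in 390 genes. Of the 44 genes given by library, 176 groups of 4 libraries were examined for 1 library far from the other 3 by Dixon's gap over range of log2 CPM, and 6 had one, where chance gives about 1 in 20 (5%). These were Pnpla3 at 6.61 CPM in CD fed 4, Cyp4a14 at 12183 CPM and Cyp4a10 at 6835 CPM in CD fast 2, Tmtc2 at 29.2 CPM in CD fast 2, Tdo2 at 1442 CPM in HFD fast 4 and Tmem243 at 49.6 CPM in HFD fast 1. On the CPM scale 10 groups had one, these 6 and Thrsp at 201 CPM and Klb at 30.8 CPM in HFD fast 2, Fdps at 17.7 CPM in HFD fast 3 and Csrp2 at 63.6 CPM in CD fast 2.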

How the results depend on the processing

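The interaction genes numbered 390, of which 47.4% were positive. They numbered 407 with DESeq2 size factors, 387 with upper quartile scaling, 374 with robust edgeR, 357 with limma-voom, 303 with no low count filter, 524 with a stricter count filter and 440 with total count scaling, of which 69.5% were positive; that scaling moved the median interaction of all genes from -0.0015 to 0.087. DESeq2 called 1066 interaction genes (714 lost genes, 82 reduced genes, 34 reversed genes, 167 gained genes, 3 enlarged genes and 66 unclassed genes; 343 fed-level genes, 389 mixed genes and 334 fasted-level genes), 2009 genes for fasting in HFD, 1768 for HFD in fed mice and 1967 for HFD in fasted mice. At an adjusted p under 0.01 there were 31 interaction genes, 15 lost genes, 6 reduced genes, 5 reversed genes, 5 gained genes, 0 enlarged genes, 0 unclassed genes, 22 fed-level genes, 6 mixed genes and 3 fasted-level genes. With an absolute log2 interaction of at least 1 there were 166, with 115 lost, 16 reduced, 6 reversed, 28 gained, 0 unclassed, 67 fed-level, 70 mixed and 29 fasted-level genes. With fasting contrasts at an unadjusted p under 0.05, 49 were reduced, 90 reversed and 0 unclassed. With no low count filter 6 were reversed, 2 enlarged and 60 fasted-level. The stricter count filter gave 2 enlarged and 10 unclassed genes, and total count scaling, upper quartile scaling and DESeq2 size factors each gave 2 enlarged genes. With total count scaling 2101 genes passed for HFD in fasted mice. Causes were not tested. Leaving out 1 library in turn gave 147 (CD fed 2) to 461 (HFD fast 1) interaction genes, of which 146 to 353 were among the 390. Other counts below the 390 by over 1.5 times were those without CD fed 1 (246), CD fast 2 (233), HFD fed 1 (241), HFD fed 2 (241), HFD fed 3 (168), HFD fast 3 (162) and HFD fast 4 (239). The ranges were 111 to 368 for lost genes, 9 to 32 for reduced genes, 3 to 21 for reversed genes, 16 to 90 for gained genes, 1 to 2 for enlarged genes, 0 to 11 for unclassed genes, 68 to 147 for fed-level genes, 49 to 211 for mixed genes, 23 to 132 for fasted-level genes, 2857 to 3958 for fasting in CD, 505 to 1533 for fasting in HFD, 514 to 1268 for HFD in fed mice and 535 to 1354 for HFD in fasted mice. With the replicate block there were 359 interaction genes, 288 of them among the 390, and 3 unclassed genes. By list, the block called 5 glucocorticoid-induced genes (2 without it), 1 gene of triglycerides and lipid droplets (2) and 0 acute phase proteins (1). Total count scaling called 1 glucocorticoid-induced gene, 2 genes of glycolysis (1), 2 acute phase proteins, 3 endothelial markers (1) and 1 growth hormone gene (0). Over 24 pairs of same-numbered libraries the correlation of deviations from the group means was -0.24 to 0.66 (median 0.058, against 9.9e-05 in other pairs), and 7 of 16 libraries correlated best with their own number. Since the labels name nothing that mice of a number share and not every pair was correlated, the numbers were not taken as pairs, and a weaker shared effect was not tested. Over the 76 named interaction genes and their alternatives, 1620 of 1900 values kept their direction and side of the threshold, 280 kept the direction and did not pass, and 0 turned.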
